A study of Mus musculus with 11 samples.

Results

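The RNA levels of 9 genes that mark the layers of the cerebral cortex were followed in CRF1-expressing (CRF1+) cells sorted from the medial prefrontal cortex (mPFC) of single mice. Cux1, Cux2 and Rorb were taken as the upper layer genes, and Fezf2, Bcl11b, Tbr1, Tle4, Foxp2 and Etv1 as the deep layer genes. They were listed by name for their known layers, with earlier results of these data known, and all 9 were found among the 53465 genes of the count tables and passed the filter on low counts, which left 17093 genes for testing.

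Libraries came from adult male CRF1:GFP mice, in which GFP marks cells that express CRF1, the receptor for corticotropin releasing factor encoded by Crhr1. All 11 mice carried this reporter and received the alcohol dehydrogenase inhibitor pyrazole. The 5 withdrawn mice had inhaled ethanol vapor intermittently for weeks, with injections of ethanol, and were then kept abstinent for days, while the 6 naïve mice breathed air. Each library held the cells that 1 mouse gave after dissociation, gating and sorting, so n counts mice. For 3 of the 5 withdrawn mice (replicates 3, 4 and 5) another label reads control, and the design text swaps the sizes of the groups. Values without these 3 mice are given where they differ most.

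Excitatory neurons of the cortex are born in order, deep layers first, and a small set of transcription factors fixes the layer in which each neuron settles and where it sends its axon. Upper layer neurons mostly connect cortical areas with one another, whereas layer 5 neurons reach subcortical targets and the spinal cord, and layer 6 neurons project to the thalamus. In the adult cortex many of these factors remain on and serve as labels of cell identity. The neurons marked by the reporter are described in the study as dense in layer 2/3 of the prelimbic area. The levels of upper and deep layer genes bear on the layers of the sorted cells but do not fix them. Other cells, such as striatal neurons, express some of these genes. The comparison of withdrawn with naïve mice asks whether these levels changed.

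Library sizes ranged from 7351567 to 22244869 counts on genes, and from 15585 to 31830 genes were detected per mouse. Levels are given as CPM, the counts of a gene per 1000000 counts of the library after normalization of library sizes. The limit set by 3 counts, taken on library sizes before that normalization, lay between 0.135 and 0.408 CPM. The sorted cells held Crhr1 at 92.7 ± 21.5 CPM in naïve (SD, n = 6) and 89.3 ± 33.6 CPM in withdrawn mice (SD, n = 5). The excitatory marker Slc17a7, a vesicular glutamate transporter, stood at 1435 ± 346 and 1362 ± 447 CPM, and the inhibitory marker Gad2, a GABA-synthesizing enzyme, at 39.9 ± 21.5 and 57.5 ± 47.3 CPM, in naïve and withdrawn mice respectively. Reads that fell outside annotated exons made up 5.77% to 31.5% of the tallied reads in naïve mice and 13.3% to 48.1% in withdrawn mice.

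None of the 9 layer genes passed the test between withdrawn and naïve mice, and in no member did the groups separate. Calls required a log2 fold change beyond 0.6 together with a p of 0.05 or less after Benjamini-Hochberg adjustment over all tested genes, from the quasi-likelihood test of edgeR. That rule called 0 of 9 members and 1 of 17093 genes (0.00585%), and DESeq2 called 0 of 9 members and 362 of 21849 genes (1.66%). At an unadjusted p under 0.05 edgeR counted 1 member, Foxp2, beside 7.22% of all genes (5.0% higher and 2.22% lower in withdrawn mice), and the groups did not overlap for 0.948% of all genes. The 3 upper layer genes were all fitted higher in withdrawn mice, with a median log2 fold change of 0.45, beside 51.8% of all genes fitted higher and a median of 0.02. Among the deep layer genes 1 was fitted higher and 5 lower, with a median of -0.24. In these bulk samples fewer cells of a layer and less RNA per cell cannot be told apart.

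**Figure D1:**
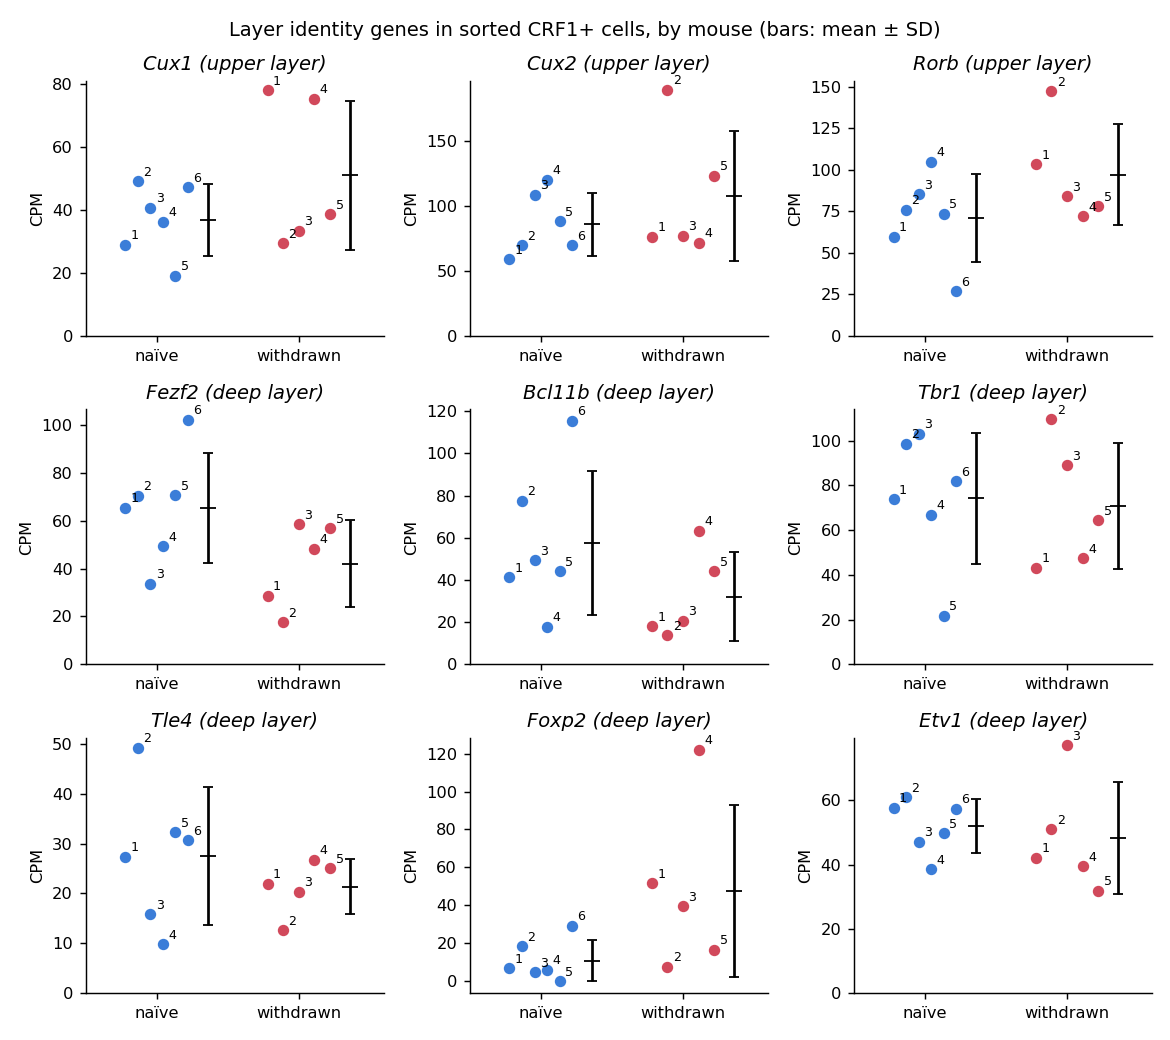
Level of each layer gene in CPM (vertical axis, linear, each panel with its own scale) in 6 naïve and 5 withdrawn mice; points are mice with their replicate numbers, and bars show the mean ± SD. In every panel the groups overlap, and the widest relative spread is that of Foxp2, from 0 to 122.1 CPM.

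Cux1 is a homeodomain transcription factor of layers 2 to 4 that shapes dendrites and synapses, and the same locus also gives rise to a shorter protein of the Golgi apparatus, which counts per gene cannot separate. It lies at chr5:136248135-136567490 on the minus strand (GRCm38, ENSMUSG00000029705), and 394 bases of its exons lie opposite Gm16599. Its lowest, median and highest levels in naïve mice were 19.2, 38.6 and 49.1 CPM. The withdrawn mice had 78.2, 29.5, 33.5, 75.5 and 38.8 CPM, in the order of replicates 1 to 5. Withdrawn mice 1 and 4 lay above every naïve mouse, and the other 3 lay inside the naïve range. The fitted log2 fold change was 0.47 (SE 0.32, 95% interval -0.22 to 1.16), with an adjusted p of 0.836 in edgeR's quasi-likelihood test. It was 0.24 without withdrawn mouse 1 and 0.28 without withdrawn mouse 4.

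Cux2, the paralog of Cux1 and the more selective upper layer label, lies on the minus strand at chr5:121856366-122050102 (ENSMUSG00000042589). Naïve mice ranged from 58.9 through a median of 79.2 to 120.3 CPM. In withdrawn mice Cux2 stood at 76.5, 189.6, 77.3, 71.8 and 123.4 CPM. Withdrawn mouse 2 was well above all others, withdrawn mouse 5 was just above the highest naïve mouse, and the other 3 withdrawn mice lay at or near the naïve median. The log2 fold change was 0.32 (SE 0.28, 95% interval -0.28 to 0.92), with an adjusted p of 0.877 (edgeR, quasi-likelihood), and without withdrawn mouse 2 it was 0.012. Without the 3 mice with conflicting labels it was 0.56.

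Rorb, a nuclear receptor that marks layer 4 and neighbouring layer 5 neurons, lies on the minus strand of chromosome 19, at chr19:18930605-19111196 (ENSMUSG00000036192). The rodent mPFC lacks a distinct layer 4. Naïve mice had between 26.9 and 104.9 CPM around a median of 74.7 CPM, and withdrawn mice had 103.2, 147.3, 84.1, 71.9 and 78.2 CPM. A single withdrawn mouse, again replicate 2, exceeded the naïve range, and naïve mouse 6 had the lowest level of all 11. The log2 fold change of Rorb was 0.45 (SE 0.29, 95% interval -0.18 to 1.08; edgeR adjusted p = 0.820). It was 0.24 without withdrawn mouse 2, 0.28 without naïve mouse 6 and 0.76 without the 3 mice with conflicting labels. For the 3 upper layer genes the intervals thus reach from a fall of at most 0.28 to a rise of 0.92 to 1.16 on the log2 scale.

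Of the deep layer genes, Fezf2 and Bcl11b belong to one program. Fezf2 is a zinc finger factor that directs layer 5 neurons to project below the cortex, and Bcl11b, also named Ctip2, acts downstream of it in the growth of corticospinal axons. Fezf2 (ENSMUSG00000021743) lies on the minus strand at chr14:12342094-12348189. Its levels in naïve mice ran from 33.7 through a median of 67.9 to 102.1 CPM. Withdrawn mice had 28.6, 17.6, 58.6, 48.2 and 56.8 CPM. Withdrawn mice 1 and 2 were below every naïve mouse, and 4 of the 6 naïve mice were above every withdrawn mouse. Fezf2 had a log2 fold change of -0.64 (SE 0.34, 95% interval -1.36 to 0.085), with an unadjusted p of 0.0793 and an adjusted p of 0.763 (edgeR).

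Bcl11b (ENSMUSG00000048251, minus strand, chr12:107910403-108003602) had 17.9 CPM in the lowest naïve mouse, a median of 46.7 CPM and 115.6 CPM in the highest. In withdrawn mice it stood at 18.2, 13.9, 20.7, 63.4 and 44.1 CPM. Withdrawn mice 1, 2 and 3 lay at the bottom of the naïve range or below it, while withdrawn mice 4 and 5 lay within it. The log2 fold change was -0.85 (SE 0.48, 95% interval -1.87 to 0.18; edgeR unadjusted p = 0.0970, adjusted p = 0.780), and it was -0.52 without naïve mouse 6. Without the 3 withdrawn mice with conflicting labels, replicates 1 and 2 remained. In the same edgeR test Bcl11b then had a log2 fold change of -1.89 (unadjusted p = 0.0104, adjusted p = 0.691). Fezf2 was at -1.55 (edgeR unadjusted p = 0.00466, adjusted p = 0.647). Neither was called, and 6.27% of all genes in that fit had an unadjusted p under 0.05. Withdrawn mouse 2 was the lowest of all 11 mice in both genes and naïve mouse 6 the highest in both.

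Tbr1 and Tle4 stand for layer 6. Tbr1 is a T-box factor required for the identity of corticothalamic neurons, and Tle4 encodes a co-repressor found in the same neurons. Tbr1 (ENSMUSG00000035033) lies on the plus strand at chr2:61802930-61814114 and had a naïve range of 21.8 to 103.1 CPM with a median of 77.8 CPM. Withdrawn mice had 43.1, 109.5, 89.1, 47.6 and 64.4 CPM. The groups covered nearly the same span, with naïve mouse 5 far below the other naïve mice. Its log2 fold change was -0.071 (SE 0.35, 95% interval -0.82 to 0.68; edgeR adjusted p = 0.984), and it was above 0 without naïve mouse 2 or 3 or withdrawn mouse 1 or 4, up to 0.054.

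Tle4 (ENSMUSG00000024642, minus strand, chr19:14448150-14598051) ranged from 9.84 through a median of 29.0 to 49.3 CPM in naïve mice. The withdrawn mice held 22.0, 12.6, 20.3, 26.8 and 25.1 CPM, all inside the naïve range, while 4 of 6 naïve mice were above the highest withdrawn mouse. The fitted change was -0.37 on the log2 scale (SE 0.38, 95% interval -1.19 to 0.45), with an adjusted p of 0.904 by edgeR. It was -0.13 without naïve mouse 2, -0.24 without withdrawn mouse 2 and -0.71 without the 3 mice with conflicting labels.

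Etv1, an ETS family factor of layer 5 neurons, was the least variable member in naïve mice. It lies on the plus strand of chromosome 12 at chr12:38779380-38870484 (ENSMUSG00000004151). Naïve levels ran from 38.6 to 61.0 CPM with a median of 53.6 CPM, and withdrawn levels were 42.1, 51.0, 77.1, 39.5 and 31.8 CPM. Withdrawn mouse 3 was above and withdrawn mouse 5 below all naïve mice. The log2 fold change of -0.10 (SE 0.24, 95% interval -0.61 to 0.40; edgeR adjusted p = 0.966) was the one with the narrowest interval among the 9 genes, and it was 0.0058 without withdrawn mouse 5 and -0.36 without withdrawn mouse 3.

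Foxp2, a forkhead factor of layer 6 neurons that many striatal neurons also express, was the 1 deep layer gene fitted higher in withdrawn mice. The gene (ENSMUSG00000029563, plus strand, chr6:14901349-15441977) had 0 counts in naïve mouse 5, which allows a level of up to 0.191 CPM, before normalization, in that library. In the other naïve mice it stood between 4.69 and 29.4 CPM, and the median of all 6 was 6.49 CPM. Withdrawn mice had 51.7, 7.61, 39.4, 122.1 and 16.6 CPM. Withdrawn mice 1, 3 and 4 were above every naïve mouse, and mice 2 and 5 lay inside the naïve range. The top withdrawn mouse held 51.4% of the CPM summed over its group. The log2 fold change was 2.11 (SE 0.93, 95% interval 0.12 to 4.11), with an unadjusted p of 0.0395 and an adjusted p of 0.653 by edgeR's quasi-likelihood test, and 0.328 by DESeq2. Without withdrawn mouse 4 it was 1.40, and without the 3 mice with conflicting labels it was 1.41.

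**Figure D2:**
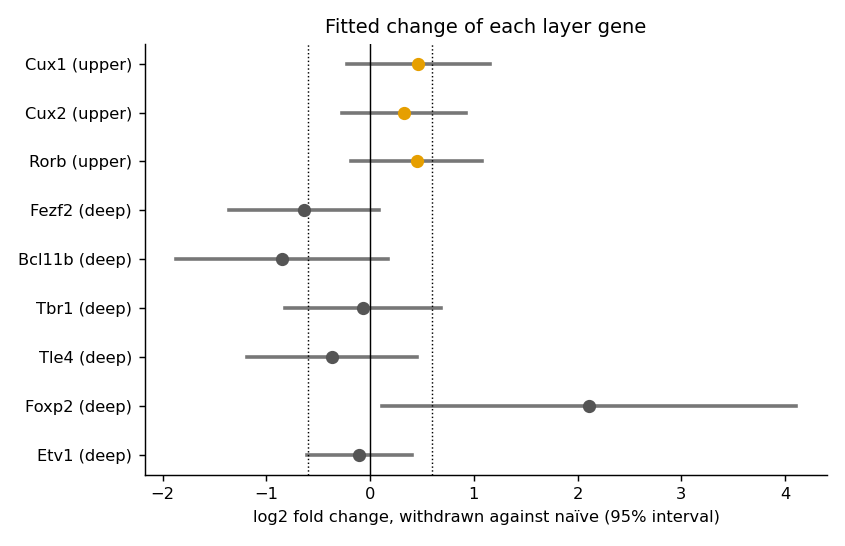
Fitted log2 fold change of each layer gene, withdrawn against naïve mice (horizontal axis, points), with its 95% interval (bars) from the edgeR fit; dotted lines mark 0.6 in either direction and the solid line marks 0. Intervals of 8 genes cross 0, and that of Foxp2 runs from 0.12 to 4.11.

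In withdrawn mice the level of Foxp2 moved with the summed markers of some other cell types, but not of all. The fibroblast list (Col1a1, Col1a2, Col3a1, Dcn and Lum) summed to between 0.0677 and 62.8 CPM in naïve mice, and to 1114, 11.4, 539, 703 and 176 CPM in withdrawn mice 1 to 5. Withdrawn mice 1, 3 and 4 were thus the highest for Foxp2 and for fibroblast markers, and withdrawn mouse 2 was the lowest of its group in both. The naïve mice did not share this order between Foxp2 and the fibroblast sum. Naïve mice 3 and 4 had the highest fibroblast sums of their group (62.8 and 43.8 CPM), with Foxp2 at 4.69 and 6.12 CPM. Naïve mice 6 and 2 had the highest Foxp2 (29.4 and 18.5 CPM), with sums of 15.9 and 11.4 CPM. All 4 tested members of that list were fitted higher, with a median log2 fold change of 4.19 and an unadjusted p under 0.05 for each. edgeR called 0 of them, and DESeq2 called Col1a1 and Dcn. Each of the 5 markers had 0 counts in at least 1 mouse.

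Astrocyte markers summed to 9.41 to 153 CPM in naïve and 12.7 to 355 CPM in withdrawn mice, and mural cell markers to 0.135 to 94.7 and 7.05 to 159.7 CPM. In both sums the withdrawn mice fell in the same order as for Foxp2, with replicate 4 highest, followed by 1, 3, 5 and 2. In naïve mice Foxp2 and the mural sum were highest in replicate 6, followed by 2 and 1, and lowest in replicate 5. The astrocyte sum was highest in naïve replicate 2, followed by 6 and 1, and lowest in 5. The endothelial, oligodendrocyte, oligodendrocyte precursor, microglia, interneuron and striatal sums, given further below, did not follow the Foxp2 order in withdrawn mice. The astrocyte and mural lists did not move as a whole. Of 4 tested astrocyte markers 1 was fitted higher (median log2 fold change -0.38), and of 3 mural markers also 1 (median -0.59). The higher astrocyte marker was Gja1, a gap junction protein, at 15.3 ± 12.0 CPM in naïve and 186.8 ± 121.6 CPM in withdrawn mice, and the higher mural marker was Pdgfrb, a growth factor receptor, at 4.25 ± 6.32 and 28.7 ± 33.8 CPM. The glutamate transporter Slc1a3 (-0.63) and Rgs5 (-1.45) had log2 fold changes below 0. The part of the astrocyte and mural markers in the Foxp2 result was not tested. With the mean log2 CPM of the 4 tested fibroblast markers as a covariate, an alternative added once the data had been seen, Foxp2 had a log2 fold change of -0.86 (SE 1.40; edgeR adjusted p = 0.949). In that fit Cux1 was at -0.41 (adjusted p = 0.905), while the other 7 members kept their signs. The fit cannot separate this covariate from the group. Fibroblast sums were at most 62.8 CPM in naïve mice and at least 176 CPM in withdrawn mice 1, 3, 4 and 5. With the percentage of reads outside exons as the covariate, also added after seeing the data, Foxp2 was at 1.62 (unadjusted p = 0.112).

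**Figure D3:**
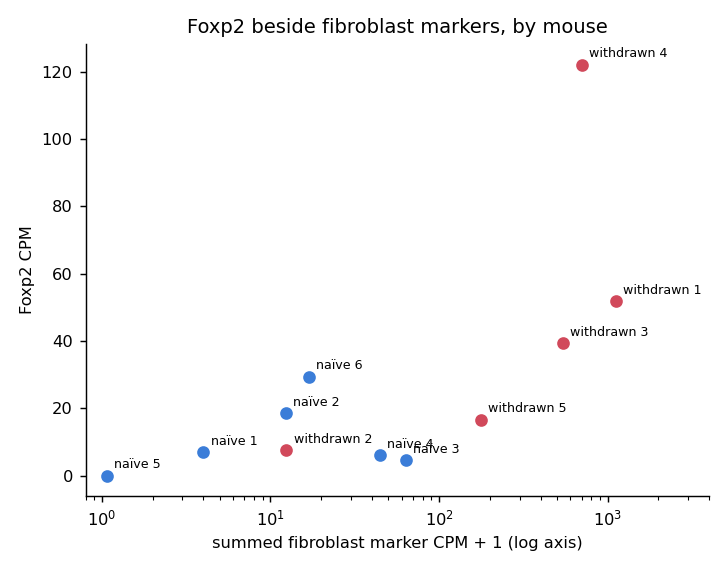
Foxp2 level in CPM (vertical axis, linear) against the summed CPM of 5 fibroblast markers plus 1 (horizontal axis, log scale), 1 point per mouse, naïve in blue and withdrawn in red. Withdrawn mice 1, 3 and 4 lie at the upper right, with marker sums of 539 to 1114 CPM, and withdrawn mouse 2 lies among the naïve mice.

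The relation of upper to deep layer genes was then described mouse by mouse, as the mean log2 CPM of the 3 upper layer genes minus that of the 6 deep layer genes. In naïve mice it was -0.44 at the lowest, 0.84 at the median and 1.75 at the highest. Withdrawn mice 1 to 5 had 1.41, 2.05, 0.47, 0.50 and 1.00. The groups overlapped: the lowest 3 of the 11 mice were naïve, the next 3 were withdrawn, and withdrawn mouse 2 alone lay above the naïve range. Group means were 0.81 ± 0.89 (SD, n = 6) and 1.09 ± 0.66 (SD, n = 5), a difference of 0.28 that was smaller than either SD. Leaving out 1 mouse at a time moved it between 0.027 (without naïve mouse 6) and 0.47 (without naïve mouse 4), and without withdrawn mouse 2 it was 0.037.

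Foxp2 weighed on this difference because it was the deep layer gene fitted higher. Without Foxp2, a choice made after its values were seen, the means were 0.27 ± 0.73 in naïve and 1.05 ± 0.56 in withdrawn mice, a difference of 0.78. In naïve mouse 5 Foxp2 had 0 counts, so that its log2 value came from the prior count. The score of that mouse was 1.66 with Foxp2 and 0.30 without it. Without the 3 mice with conflicting labels, and with all 9 genes, the difference was 0.92. No test was made on these scores.

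**Figure D4:**
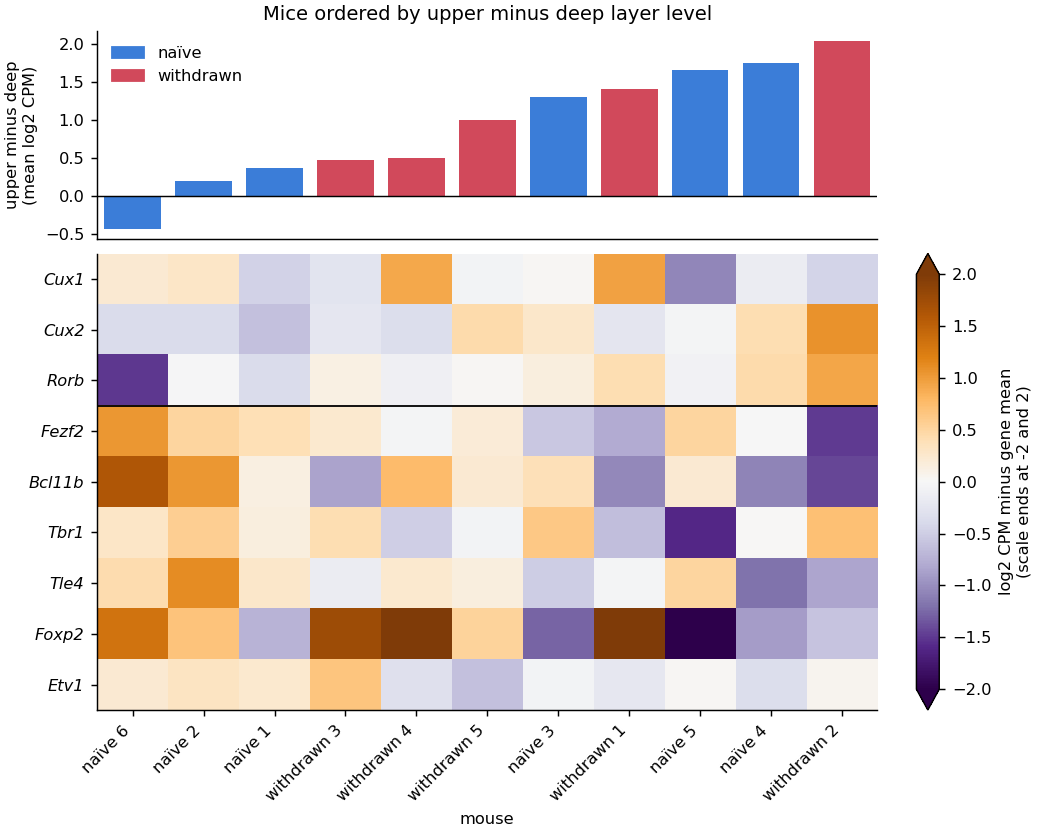
Upper panel, mean log2 CPM of upper minus deep layer genes in each of 11 mice, ordered from lowest to highest (bars, naïve blue, withdrawn red); lower panel, log2 CPM of each gene minus its mean over the mice, with colours that end at -2 and 2. The lowest 3 mice are naïve, from naïve mouse 6 at -0.44, the next 3 are withdrawn, and both groups stand among the highest 5, up to withdrawn mouse 2 at 2.05.

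The ends of that order were set by few mice. Withdrawn mouse 2 had the highest level of all 11 mice for Cux2, Rorb and Tbr1 and the lowest for Fezf2 and Bcl11b, so that a layer 6 gene stood with the upper layer genes there. Naïve mouse 6 showed the reverse, with the highest Fezf2 and Bcl11b and the lowest Rorb. Naïve mouse 5, the library with the fewest genes detected, was lowest for Cux1, Tbr1 and Foxp2.

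The spread between mice of one group was wide for most layer genes. Among tested genes with a mean of at least 10 CPM (10208 genes), the median SD of log2 CPM was 0.453 in naïve and 0.396 in withdrawn mice. In naïve mice Bcl11b (0.91), Tbr1 (0.82), Tle4 (0.82), Rorb (0.68), Fezf2 (0.54) and Cux1 (0.51) exceeded that median, Foxp2 reached 2.71 through its library at 0, and Cux2 (0.40) and Etv1 (0.25) were below it. In withdrawn mice all 9 genes were above the median of their group, from Rorb at 0.41 to Foxp2 at 1.53.

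The 9 members were ranked against one another per kilobase of exon. Genes of the other lists, given further below, were ranked by mean CPM over all mice, without regard to length. By naïve means Fezf2 came first at 21.4 ± 7.57 CPM per kb, before Tbr1 at 13.5 ± 5.34 and Cux2 at 8.53 ± 2.41 CPM per kb (SD, n = 6). Bcl11b (7.11 ± 4.22 CPM per kb), Rorb (6.42 ± 2.38), Tle4 (4.84 ± 2.43) and Etv1 (3.91 ± 0.631) followed. Cux1 was at 1.85 ± 0.568 and Foxp2 at 0.669 ± 0.668 CPM per kb. RNA of both upper and deep layer genes was thus present in the cells sorted from every naïve mouse, apart from Foxp2 in naïve mouse 5.

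Not every step of this order exceeded the spread. Fezf2 was above Tbr1, Etv1 above Cux1, and Cux1 above Foxp2 by more than either SD, and each of these steps held in 9 of 11 mice. In the run from Tbr1 through Cux2, Bcl11b, Rorb and Tle4 to Etv1, neighbouring means differed by less than the larger SD, and Bcl11b was above Rorb in only 3 of 11 mice. In withdrawn mice Rorb (8.75 ± 2.75 CPM per kb) stood before Bcl11b (3.95 ± 2.60), and Foxp2 (2.91 ± 2.77) before Cux1 (2.55 ± 1.19). With the longest transcript in place of all exons, Etv1 moved from the seventh to the fourth place.

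**Figure D5:**
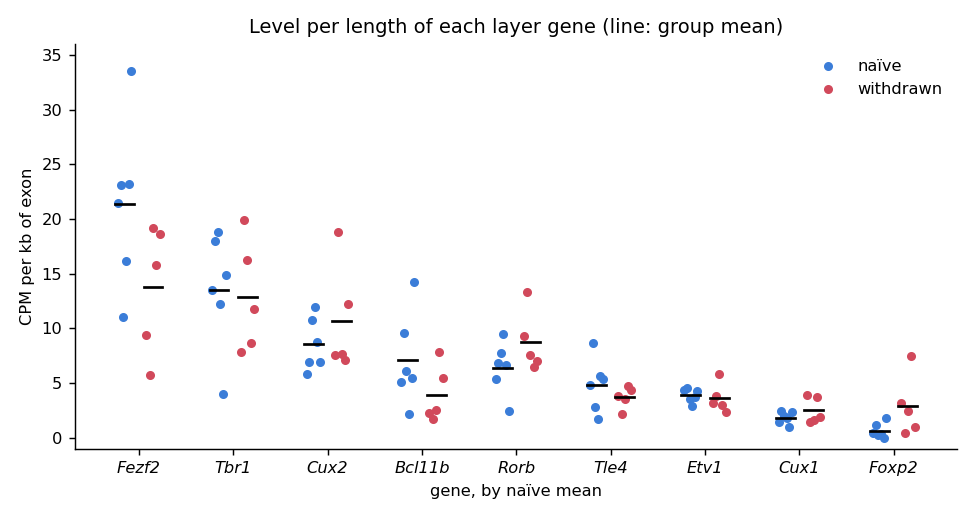
Level of each layer gene in CPM per kb of exon (vertical axis, linear), genes ordered by their naïve mean; points are mice, naïve in blue and withdrawn in red, and lines are group means. Fezf2 leads in both groups, with means of 21.4 and 13.8 CPM per kb, and Foxp2 and Cux1 are the lowest.

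On the same scale Cux1, Cux2 and Rorb held 25.7% ± 9.48 of the summed level of the 9 genes in naïve mice (SD, n = 6, range 13.7% to 39.5%). In withdrawn mice they held 35.2% ± 10.3 (SD, n = 5), with 41.2%, 49.7%, 25.4%, 26.8% and 32.7% in replicates 1 to 5. Mice 1 and 2 were above the naïve range and the other 3 inside it. The difference of 9.49 percentage points was smaller than the SD of the withdrawn mice and about the size of that of the naïve mice, and it was 19.8 points without the 3 mice with conflicting labels.

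Other genes of the same layers were read from lists that left out the 9 members. Of 15 tested upper layer genes 7 were fitted higher and 8 lower, with a median log2 fold change of -0.19, and 0 had an unadjusted p under 0.05. Highest by mean CPM was Enpp2, a secreted lysophospholipase, at 196.5 ± 28.8 CPM in naïve and 201.1 ± 53.0 CPM in withdrawn mice. Calb1, a calcium-binding protein, came next at 171.8 ± 67.9 and 144.3 ± 60.3 CPM. Lamp5 had the smallest p of the list, with a log2 fold change of -0.39 (edgeR adjusted p = 0.798). DESeq2 called 1 gene of this list, Scnn1a, a sodium channel subunit that had 0 counts in 7 of 11 mice. The direction of the 3 upper layer members was shared by 7 of these 15 genes.

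Of 12 tested layer 5 genes 5 were fitted higher and 7 lower, with a median of -0.22, and edgeR called 0. Crym, a thyroid hormone-binding protein, had 287.6 ± 59.0 and 225.2 ± 46.6 CPM in naïve and withdrawn mice (log2 fold change -0.35, edgeR adjusted p = 0.761), and Sulf2, an extracellular sulfatase, 135.4 ± 43.2 and 155.1 ± 48.6 CPM. An unadjusted p under 0.05 was reached by 4 of the 12, with Npr3 and Igfbp4 fitted higher and Rbp4 and Pcp4 lower. Npr3, the natriuretic peptide clearance receptor, had the smallest p of the list, with 5.16 ± 5.31 CPM in naïve and 50.2 ± 48.0 CPM in withdrawn mice and a log2 fold change of 3.27 (SE 1.10, edgeR adjusted p = 0.428). Its withdrawn mice ranged from 2.13 to 124.9 CPM.

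Among 14 layer 6 and subplate genes 5 were fitted higher and 9 lower, with a median of -0.12 and 0 with an unadjusted p under 0.05. Rprm, a cell cycle regulator used as a layer 6 label, was at 53.1 ± 35.5 CPM in naïve and 35.3 ± 14.1 CPM in withdrawn mice, and Nr4a2, an orphan nuclear receptor, at 20.7 ± 13.3 and 18.7 ± 10.4 CPM. Hs3st4 had the smallest p of this list at a log2 fold change of -0.89 (edgeR adjusted p = 0.805). Genes that most cortical projection neurons share numbered 14, of which 6 were fitted higher and 8 lower, with a median of -0.07. After Slc17a7 the highest by mean CPM was Mef2c, an activity-regulated transcription factor, at 1253 ± 279 and 1280 ± 244 CPM. Neurod2, a basic helix-loop-helix factor of these neurons, was the 1 gene with an unadjusted p under 0.05, at 92.2 ± 13.0 CPM in naïve and 67.6 ± 18.4 CPM in withdrawn mice (log2 fold change -0.45, edgeR adjusted p = 0.653).

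Markers of other cells were present at levels that differed widely between mice of one group. Interneuron markers summed to 88.1 to 937.5 CPM in naïve and 34.0 to 789.7 CPM in withdrawn mice, with medians of 467.4 and 269.3 CPM, while 7 of 9 were fitted higher. Sst, the somatostatin gene, had the highest mean CPM of the list over all mice. In withdrawn mice it averaged 6.53 CPM, while Gad1 averaged 155.4 CPM. Sst was fitted lower, from 0.0677 to 699.2 CPM in naïve and 0 to 32.6 CPM in withdrawn mice (-5.33 on the log2 scale). It was the 1 gene of the list under 0.05 without adjustment in edgeR's quasi-likelihood test (unadjusted p = 0.0221, adjusted p = 0.545). Striatal projection neuron markers, which bear on Foxp2 and Bcl11b because striatal neurons express both, summed to 202.6 to 361.4 and 182.7 to 573.3 CPM, with 2 of 6 fitted higher and a median log2 fold change of -0.62. Of their defining receptor genes, Drd2 and Adora2a had 0 counts in 4 and 2 of the 11 mice, and Drd1 had counts in every mouse, with a log2 fold change of -1.05 (edgeR adjusted p = 0.857). Penk, the enkephalin precursor, had the highest mean CPM of that list. It stood at 140.7 ± 71.5 CPM in naïve and 294.4 ± 179.4 CPM in withdrawn mice (edgeR unadjusted p = 0.0232, adjusted p = 0.553). Oligodendrocyte markers summed to 108.5 to 246.4 and 86.8 to 228.8 CPM, and endothelial markers to 3.18 to 600.1 and 23.0 to 432.2 CPM. Oligodendrocyte precursor markers (0 to 14.9 and 7.63 to 26.7 CPM) and microglia markers (0 to 6.47 and 6.87 to 17.5 CPM) were low. edgeR called 0 genes in any of these lists, and their part in the levels of the layer genes was not tested.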

How the data were processed

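The authors sorted GFP-positive cells from dissociated mPFC and made cDNA from picogram amounts of total RNA with the SMARTseq HT kit. They used cutadapt for trimming, STAR for mapping to GRCm38 and HTSeq for counting reads on Ensembl genes. The deposited values are these raw counts for 11 mice. The strand setting is not given in the sources used here. Tally rows that name no gene held 18.9% to 58.0% of reads and were left out. Symbols and coordinates came from GENCODE M21 (53274 of 53465 identifiers).

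Mice were grouped by title and treatment. Counts were tested with edgeR 4.0.16 in R 4.3.3 (TMM, filterByExpr with a minimum count of 10 and a minimum total of 15, quasi-likelihood test, Benjamini-Hochberg adjustment). log2 CPM used a prior count of 2. The SE is the size of the log2 fold change over the square root of F. DESeq2 1.42.0, limma 3.58.1 (voom), other normalizations, filters and covariates, a replicate block and each mouse left out were alternatives. Scripts were tested on simulated data. Intervals cover spread between mice, and floors cover counting error only. Nothing in the labels ties mice to litters or sorting days. Within groups, the lowest chi-square per degree of freedom between 2 libraries was 29.4 over 25 pairs, so none was a duplicate.

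Members and gene lists were chosen with earlier results of these data known. Named genes are the 9 members, the 2 with the highest mean CPM and the smallest-p gene of each layer or projection neuron list, any called gene of those lists, and Crhr1, Slc17a7 and Gad2. Fibroblast, astrocyte, mural, striatal, interneuron and microglia genes and the layer 5 genes other than Crym, Sulf2 and Npr3 were named after their values were seen.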

Additional observations from a re-analysis of the deposited data

Results flagged for a closer look

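Naïve mouse 5 stood apart from the other 5 naïve mice in 2 deep layer genes. Its Tbr1 level was 4.46 on the log2 CPM scale, against 6.07 to 6.69 in the others. Its Foxp2 level, from 0 counts, was -2.80 on the same scale with the prior count, against 2.27 to 4.88. In each case the gap to the nearest naïve mouse was a larger share of the group's range than Dixon's 95% limit for 6 values. Of 26 sets of values examined 2 stood out in this way, and chance gives about 1.3. The same library had the fewest genes detected (15585), the smallest percentage of reads outside exons (5.77%) and the lowest summed levels of fibroblast (0.0677 CPM), astrocyte (9.41 CPM) and mural markers (0.135 CPM) of the naïve mice. Their part in the low values was not tested. Without naïve mouse 5 the log2 fold change of Foxp2 was 1.85 (edgeR adjusted p = 0.486).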

How the results depend on the processing

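The 1 gene called over all 17093 became 137 of 41907 without a low-count filter, 30 of 10619 with at least 10 counts in every mouse, 362 with DESeq2 and 26 with the number of detected genes as a covariate. It became 0 with the reads outside exons or the fibroblast markers as covariates and 0 without the 3 mice with conflicting labels. With 1 mouse left out the count ranged from 0 to 193, the highest without withdrawn mouse 2 and 6 without naïve mouse 2. DESeq2 size factors, TMMwsp, voom with sample weights, robust dispersion and no fold minimum each gave 1.

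No member was called under any setting, the smallest adjusted p being 0.328 (Foxp2, DESeq2). Of 206 member values, 198 kept their direction and 8 reversed. Tbr1 ranged from -0.28 to 0.054 with 1 mouse left out and was above 0 without naïve mouse 2 (0.025) or 3 (0.049) and without withdrawn mouse 1 (0.053) or 4 (0.054). Etv1 was 0.0058 without withdrawn mouse 5 and otherwise as low as -0.36. With the fibroblast covariate, which that fit cannot separate from the group, Cux1 was -0.41 and Foxp2 -0.86. The upper share difference was 19.8 points without the conflicting mice and 5.86 to 12.3 with 1 mouse left out. The causes were not tested. Foxp2 gave no value where every mouse needed 10 counts.

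A replicate block called 0 genes and put Tbr1 at 0.026, Foxp2 at 3.30, Fezf2 at -0.54 and Bcl11b at -0.67. Same-numbered mice are different animals, and nothing in the labels pairs them. The correlations of their deviations ran from -0.20 to 0.182 over 5 pairs, too few to settle whether the numbers pair the mice.

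With 6 and 5 mice the intervals of the members span 1.01 to 3.99 on the log2 scale, so that changes of the size fitted for most members were not detectable here.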
